A study of Mus musculus with 7 samples.

Results

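Genes of receptors for modified and native lipoproteins, and of related proteins, were followed through the angiotensin II-exposed mouse abdominal aorta. The 9 genes were chosen by name, with earlier results of these data known. They were Olr1, which encodes LOX-1, and the class A scavenger receptor genes Msr1 and Marco. The others were the class B genes Cd36, Scarb1 and Scarb2, and Stab1, Cd68 and Lrp1. All 9 of 9 were among the 21878 genes of the deposited tables, and all 9 passed the filter on low counts that left 14609 genes for testing. The tissue is that of an abdominal aortic aneurysm model. Of the 7 libraries, DKO 1 to DKO 4 carried the genotype label ApoE-/-Nur77-/- (DKO, double knockout) and ApoE 1 to ApoE 3 the label ApoE-/-. Both groups came from male C57BL/6 mice aged 8 weeks, both were labelled ApoE-/-, a genotype known to raise plasma cholesterol, and both received angiotensin II (Ang II), a pressor peptide, for a period of at most 28 days. Nr4a1 encodes Nur77, an orphan nuclear receptor, and only the double knockout was labelled as lacking it. The labels do not say whether the deletion acts in every cell, and none of the 7 libraries came from a mouse without Ang II.

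Scavenger receptors are surface proteins that bind lipoproteins after oxidation or acetylation, together with bacterial products and dying cells. Unlike the receptor for native low-density lipoprotein (LDL), they are not shut down as cholesterol accumulates in the cell, and macrophages that take up lipid through them become foam cells. LOX-1 is best known from activated endothelium and is also made by macrophages and smooth muscle cells. CD36 carries long-chain fatty acids into adipocytes and muscle as well as oxidised LDL into macrophages, and SR-BI, the product of Scarb1, exchanges cholesteryl ester with high-density lipoprotein (HDL).

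Gene counts summed to between 19949042 and 21727192 in the libraries labelled DKO and between 19295287 and 21205934 in those labelled ApoE-/-. The targeted genes did not settle the labels. Nr4a1 was read in all libraries, at 46.2 to 92.7 CPM (each count taken per library total, the total being adjusted by edgeR's TMM method) in those labelled DKO and 56.4 to 193 CPM in those labelled ApoE-/- (log2 fold change -0.75, SE 0.42, edgeR adjusted p = 0.360, and -0.23 without ApoE 1). Apoe, labelled as deleted in both groups, was read at 18.3 to 34.7 CPM in the libraries labelled DKO and 184 to 250.3 CPM in those labelled ApoE-/- (log2 fold change -2.95, SE 0.23, edgeR adjusted p = 0.0227). Over the alternatives this fold change was -3.19 to -2.72 with adjusted p of 1.06e-28 to 0.615. By edgeR it was not called without ApoE 1 (-2.92, adjusted p = 0.159), ApoE 2 (-2.86, 0.0895), ApoE 3 (-3.07, 0.0848), DKO 3 (-3.04, 0.225) or DKO 4 (-2.94, 0.0566), nor with the replicates as a block (-2.98, 0.103). Nor was it called by edgeR with the level of macrophage genes (-3.19, adjusted p = 0.0854) or white adipocyte genes (-3.06, 0.615) as a covariate. Without ApoE 2 and ApoE 3 together the Apoe value was -3.02. Which exons were deleted was not known here, so each direction below is that of the libraries labelled DKO against the libraries labelled ApoE-/-. Whether a library stands for 1 mouse is not in the labels, so p-values measure the spread between these libraries.

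Of the members' promoters, 7 were in the RefSeq table of the GRCm38.p6 genome build, each as 250 bases before to 50 after 1 annotated start. Scarb1 and Msr1 were not among them. The window of Olr1 is shown because it held the only member match to the NBRE, the 8-base element that Nur77 binds as a monomer (letters AAAGGTCA, searched on both strands). That motif was found in 1.51% of the 32851 windows in the table. The window of Olr1 and that of Cd68 are set together because they held the only member matches to the AP-1 motif (TGANTCA, both strands), found in 7.81% of all windows. Capitals mark these matches, and the 2 motifs overlap in neither window.

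Olr1 (chr6:129507116-129507415, minus strand): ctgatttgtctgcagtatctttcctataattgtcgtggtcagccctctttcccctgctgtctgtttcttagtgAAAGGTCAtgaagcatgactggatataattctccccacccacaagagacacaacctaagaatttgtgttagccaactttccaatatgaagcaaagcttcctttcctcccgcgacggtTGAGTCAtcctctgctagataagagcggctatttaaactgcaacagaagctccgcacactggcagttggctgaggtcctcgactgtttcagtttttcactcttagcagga
Cd68 (chr11:69666121-69666420, minus strand): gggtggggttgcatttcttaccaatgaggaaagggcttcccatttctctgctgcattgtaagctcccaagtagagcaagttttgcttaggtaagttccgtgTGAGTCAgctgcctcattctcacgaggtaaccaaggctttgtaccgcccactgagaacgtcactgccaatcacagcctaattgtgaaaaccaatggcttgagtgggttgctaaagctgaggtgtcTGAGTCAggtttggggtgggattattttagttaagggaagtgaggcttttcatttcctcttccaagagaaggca

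The first base of the NBRE match lay 177 bases before the Olr1 start, at chromosome 6, 129507335 to 129507342. RefSeq's Olr1 gene span reaches to 129507350, past the match, whereas no GENCODE M21 exon of Olr1 holds it, so whether it is upstream or transcribed depends on the annotation. The AP-1 match in Olr1 began 60 bases before the start, and those in Cd68 began 149 and 24 bases before it. The core letters bound by PU.1, a factor of myeloid cells (GAGGAA, both strands), were in 4 of the 7 member windows and in 28.3% of all windows. These are matches of letters and no measure of binding.

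No member passed edgeR's quasi-likelihood test with Benjamini-Hochberg adjustment over all 14609 genes at a threshold of 0.05, in either direction. Across all genes 0% were called higher and 0.0274% lower in the libraries labelled DKO. At an unadjusted p under 0.05 there were 2 members higher, Olr1 and Stab1, and 2 lower, Cd36 and Scarb1, against 8% of all tested genes higher and 11.8% lower. In CPM the groups were free of overlap for 2 members, Stab1 and Scarb1, against 16.3% of all tested genes. The median log2 fold change was 0.34 over the 9 members, with 7 positive, and -0.021 over all tested genes, with 6924 of 14609 positive. In bulk tissue RNA, more cells of a type and more RNA per cell cannot be told apart, and this holds for each value below.

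**Figure D1:**
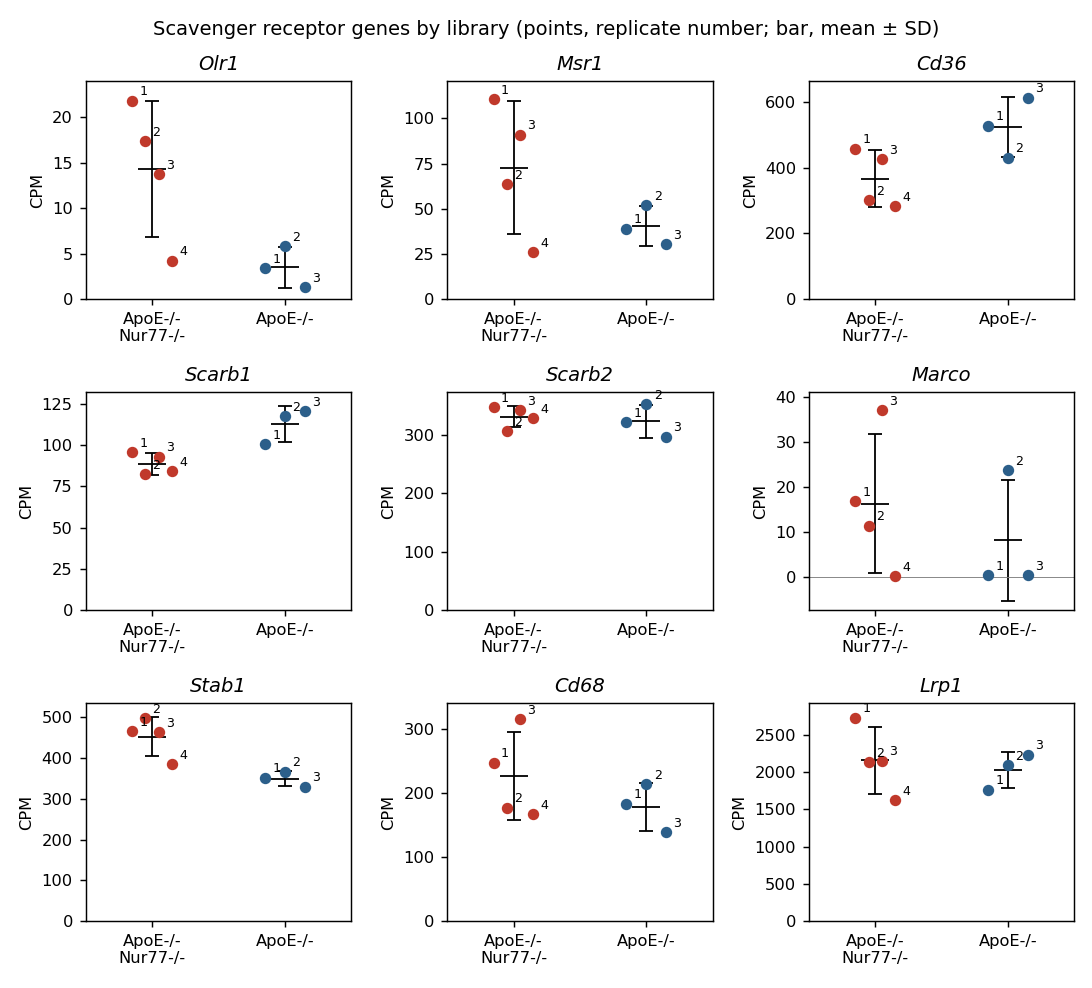
CPM of each of the 9 genes in the 4 libraries labelled ApoE-/-Nur77-/- (red, left) and the 3 labelled ApoE-/- (blue, right); points carry the replicate number and bars give the mean ± SD. DKO 1, DKO 2 and DKO 3 lie above every library labelled ApoE-/- for Olr1 and Msr1, DKO 4 does not, and Marco sits near 0 in 3 of the 7 libraries.

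Olr1 had the largest fitted fold change of the members, 4.04-fold higher in the libraries labelled DKO, without passing the test. Olr1 lies on chromosome 6 (129479150 to 129507350, GRCm38.p6, minus strand) and encodes a C-type lectin-like receptor for oxidised LDL. It was read at 21.8, 17.4, 13.7 and 4.24 CPM in DKO 1 to DKO 4 (456, 371, 309 and 83 counts) and at 3.42, 5.84 and 1.31 CPM in ApoE 1 to ApoE 3 (69, 127 and 24 counts). DKO 1, DKO 2 and DKO 3 were above every library labelled ApoE-/-, while DKO 4 fell below ApoE 2, so the groups overlapped. Its log2 fold change was 2.01 (SE 0.66, unadjusted 95% interval 0.48 to 3.55, edgeR adjusted p = 0.176). Leaving out 1 library at a time gave 1.62 (without ApoE 3) to 2.59 (without ApoE 2), on the log2 scale. DESeq2's Wald test called it higher (adjusted p = 0.0199), as it did 3.35% of the genes it gave an adjusted p. Limma voom with quality weights also called it higher (adjusted p = 0.0441), as it did 6.17% of genes. Voom gave its lowest weight, 0.41, to DKO 4, the library labelled DKO with the least Olr1.

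Genes near Olr1 in the C-type lectin cluster of chromosome 6 gave log2 fold changes closer to 0. All 7 listed neighbours were tested and 0 were called by edgeR, with 4 positive and 3 negative log2 fold changes from -0.67 to 0.64. The adjoining gene Clec7a, which encodes the beta-glucan receptor Dectin-1, was at 83.4, 50.9, 135 and 47.9 CPM in DKO 1 to DKO 4 and at 54.3, 76.0 and 39.8 CPM in ApoE 1 to ApoE 3 (log2 fold change 0.48, SE 0.40). Clec12a, an inhibitory receptor gene of myeloid cells, had a log2 fold change of 0.43, Clec1b, a platelet receptor gene, 0.64, and Clec9a, a dendritic cell receptor gene, 0.26. Clec1a had -0.025, Gabarapl1 of autophagy -0.17 and Clec12b -0.67. Clec12b did not overlap between groups but was low, at 0.75 to 1.33 CPM in the libraries labelled DKO and 1.47 to 1.69 CPM in those labelled ApoE-/-, and its RefSeq span overlaps those of Clec1b and Clec9a.

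Of the 13017 other genes with a mean log2 CPM of at least 1, Adamts4, which encodes an aggrecan-cleaving protease, had the profile nearest to Olr1 over the 7 libraries. The root mean square difference of the centred log2 CPM was 0.21, against a range of 3.96 in Olr1 itself. Adamts4 was at 46.5, 34.0, 29.6 and 6.54 CPM in DKO 1 to DKO 4 and at 6.74, 8.50 and 2.62 CPM in ApoE 1 to ApoE 3. The next were Mmp13, the gene of a collagenase, and Mest, an imprinted gene, with differences of 0.36 and 0.39. All 3 had their lowest value in ApoE 3, as Olr1 did, and DKO 4 was the lowest of the libraries labelled DKO for each. Because these genes were picked for likeness over the same 7 libraries, shared low libraries and similar fold changes follow largely from the choice. None of them passed edgeR's test (log2 fold changes 2.29, 1.54 and 1.75, adjusted p = 0.162, 0.339 and 0.254).

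**Figure D2:**
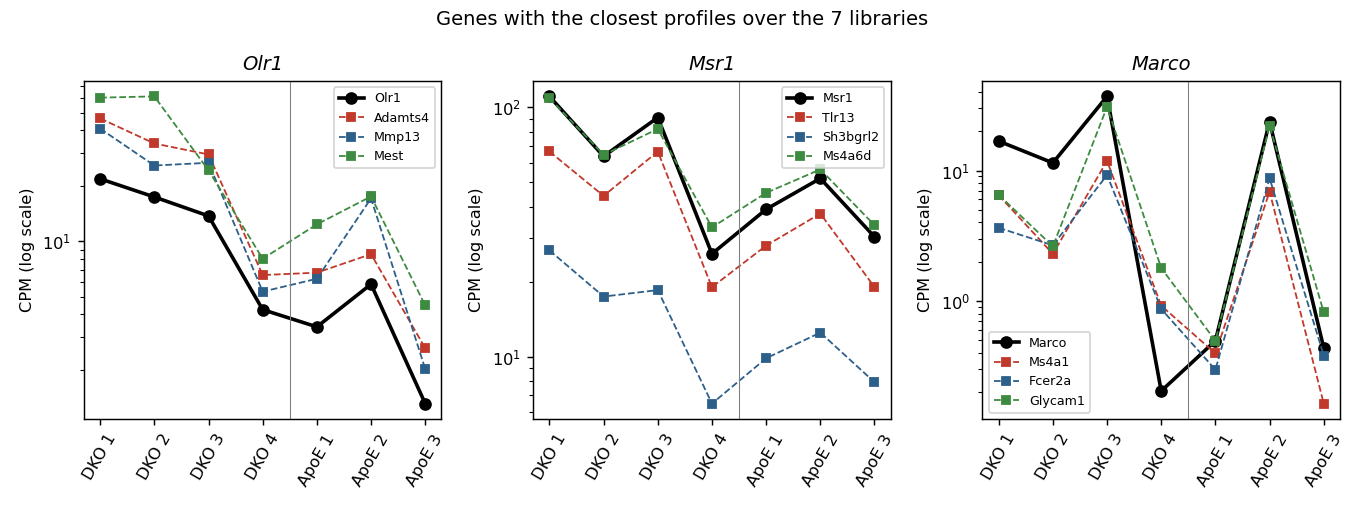
CPM on a log scale of Olr1, Msr1 and Marco (black) and the 3 genes nearest to each in profile (dashed), over the 4 libraries labelled ApoE-/-Nur77-/- (left of the line) and the 3 labelled ApoE-/- (right). The lines of Olr1 and Adamts4 run side by side, and Marco and its nearest genes are high in DKO 3 and ApoE 2.

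The class A receptor gene Msr1 (chromosome 8, 39543232 to 39642750) was higher in 3 of the 4 libraries labelled DKO and lowest of all 7 in the other. Its product, SR-A, binds acetylated and oxidised LDL on macrophages. Msr1 was at 111, 63.7, 91.0 and 25.9 CPM in DKO 1 to DKO 4 and at 39.0, 51.9 and 30.3 CPM in ApoE 1 to ApoE 3. The log2 fold change of 0.85 (SE 0.46, unadjusted 95% interval -0.22 to 1.92) did not pass the test (edgeR adjusted p = 0.342). Its nearest profiles were those of Tlr13, an endosomal sensor gene of myeloid cells, at a root mean square difference of 0.11, Sh3bgrl2 at 0.13 and Ms4a6d at 0.15.

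Marco, the second class A gene (chromosome 1, 120474538 to 120505024), varied 181-fold between libraries and within both groups. It encodes a receptor for bacteria and particles that is known from macrophages of the lung, the spleen's marginal zone and lymph nodes. Marco was at 16.8, 11.4, 37.0 and 0.205 CPM in DKO 1 to DKO 4 (351, 244, 833 and 4 counts) and at 0.496, 23.7 and 0.436 CPM in ApoE 1 to ApoE 3 (10, 516 and 8 counts). It was above 10 CPM in DKO 1, DKO 2, DKO 3 and ApoE 2 and below 1 CPM in the other 3. The log2 fold change of 0.99 had an SE of 1.59 (edgeR adjusted p = 0.772), and it was 5.11 without ApoE 2 and 0.20 without DKO 3. The nearest profiles were those of Ms4a1, which encodes the B cell antigen CD20, Fcer2a, the gene of the low-affinity IgE receptor of B cells, and Glycam1, a mucin gene of high endothelial venules, at root mean square differences of 1.24, 1.29 and 1.41 against a range of 6.94 in Marco. Glycam1 reached 30.7 CPM in DKO 3 and also 22.1 CPM in ApoE 2, where Marco was highest, and at 0.496 to 6.51 CPM in the other 5 libraries. The part of lymphoid tissue in the Marco values was not tested.

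Among the class B receptor genes, Cd36 and Scarb1 had negative fold changes that did not pass the test, and that of Scarb2 was near 0. Cd36 (chromosome 5, 17781690 to 17888959) was at 459, 301, 427 and 284 CPM in DKO 1 to DKO 4 and at 528, 431 and 614 CPM in ApoE 1 to ApoE 3. DKO 2, DKO 3 and DKO 4 lay below every library labelled ApoE-/-, and DKO 1 lay between ApoE 2 and ApoE 1. Its log2 fold change was -0.51 (SE 0.21, unadjusted 95% interval -1.01 to -0.019, edgeR adjusted p = 0.237), a fitted 1.43-fold lower level. In profile it stood nearest to Cdkn1c, a cell cycle inhibitor gene, Cebpb, the gene of a transcription factor of fat and myeloid cells, and Lpl, the gene of lipoprotein lipase (root mean square differences 0.11, 0.12 and 0.15).

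Scarb1 (chromosome 5, 125277087 to 125341094), the HDL receptor gene, had the smallest p of the members. It was at 95.7, 82.3, 92.9 and 84.1 CPM in DKO 1 to DKO 4 and at 101, 118 and 120.5 CPM in ApoE 1 to ApoE 3, so every library labelled DKO was lower. The gap was narrow, from DKO 1 to ApoE 1. For Scarb1 the log2 fold change was -0.35 (SE 0.10, unadjusted 95% interval -0.58 to -0.12), and edgeR's adjusted p was 0.160. In the deposited FPKM values, which are also scaled for transcript length, DKO 1 (20.9) lay above ApoE 1 (19.7), so there the groups overlapped. Scarb1 is high in adrenal cortex, and of 8 adrenal cortex genes 6 were too low to test. The 2 that were tested had negative log2 fold changes that were not called, and their mean level was 0.40 to 1.27 log2 CPM in the libraries labelled DKO and 1.24 to 1.51 in those labelled ApoE-/-. Star, the cholesterol transporter gene of steroid-making cells, was at 2.44 to 5.70 CPM in the libraries labelled DKO and 3.55 to 6.30 CPM in those labelled ApoE-/-. Mc2r, the corticotropin receptor gene, was at 0.511 to 1.03 CPM in the libraries labelled DKO and 0.781 to 2.13 CPM in those labelled ApoE-/-. The part of adrenal tissue in the Scarb1 values was not tested.

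Scarb2 (chromosome 5, 92441311 to 92505657) encodes LIMP-2, a lysosomal membrane protein that delivers glucocerebrosidase to lysosomes. It was the steadiest member, at 346, 306, 342 and 328 CPM in DKO 1 to DKO 4 and at 321, 352 and 296 CPM in ApoE 1 to ApoE 3, a range of 1.19-fold. Its log2 fold change was 0.034 (SE 0.098, unadjusted 95% interval -0.20 to 0.26, edgeR adjusted p = 0.883). Without ApoE 3 it was -0.025.

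Stab1 (chromosome 14, 31139017 to 31168651) encodes stabilin-1, a scavenger receptor of sinusoidal and lymphatic endothelium and of alternatively activated macrophages. It was read at 464, 496, 462 and 384 CPM in DKO 1 to DKO 4 and at 351, 365 and 329 CPM in ApoE 1 to ApoE 3, with every library labelled DKO the higher. This gave a log2 fold change of 0.37 (SE 0.11, unadjusted 95% interval 0.11 to 0.64, edgeR adjusted p = 0.167). DESeq2 (adjusted p = 0.0160) and limma voom (adjusted p = 0.0295) called it higher, as they did 3.35% and 6.17% of genes. Voom gave the least weight to DKO 4, here too the lowest of the libraries labelled DKO. By FPKM DKO 4 (32.6) lay below ApoE 2 (33.5). The list of 6 lymphatic endothelial genes was at 5.30 to 5.79 mean log2 CPM in the libraries labelled DKO and 4.47 to 5.40 in those labelled ApoE-/-. The macrophage list was at 7.03 to 7.80 in the libraries labelled DKO and 6.77 to 7.39 in those labelled ApoE-/-. The part of either cell type in the Stab1 difference was not tested. Stab1 shares 1.09% of its exonic bases with Nt5dc2 on the opposite strand, and whether counting used strand is not stated.

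Cd68 (chromosome 11, 69664213 to 69666170), a lysosomal glycoprotein gene used as a macrophage marker, was at 248, 178, 316 and 167 CPM in DKO 1 to DKO 4 and at 184, 214 and 139.7 CPM in ApoE 1 to ApoE 3. DKO 2 and DKO 4 lay below ApoE 1, and the log2 fold change of 0.34 (SE 0.25, edgeR adjusted p = 0.479) was not called. It was 0.14 without DKO 3 and 0.19 without ApoE 3. Lrp1 (chromosome 10, 127538157 to 127621148) encodes the large endocytic receptor that clears apolipoprotein E-bearing remnants and protease complexes, and it is made by smooth muscle cells, fibroblasts and macrophages. It was at 2728, 2132, 2152 and 1627 CPM in DKO 1 to DKO 4 and at 1765, 2096 and 2235 CPM in ApoE 1 to ApoE 3. DKO 1 was the highest and DKO 4 the lowest of all 7, and the log2 fold change was 0.088 (SE 0.19, unadjusted 95% interval -0.37 to 0.54, edgeR adjusted p = 0.842), turning to -0.025 without DKO 1 and -0.0025 without ApoE 1.

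The profiles nearest to Scarb1 were those of Pnp, Kctd6 and Tmem229b (root mean square differences 0.050, 0.052 and 0.059, against a range of 0.55 in Scarb1). For Stab1 they were Fmr1, Lrrc40 and Zfp644 (0.034, 0.038 and 0.047, range 0.59), and for Lrp1 Mesdc1, Sh3kbp1 and Mex3d (0.039, 0.057 and 0.066, range 0.75). Cd68 was nearest to Il10ra, the interleukin-10 receptor gene, Evi2a and Fam46c (0.055, 0.064 and 0.072, range 1.17).

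**Figure D3:**
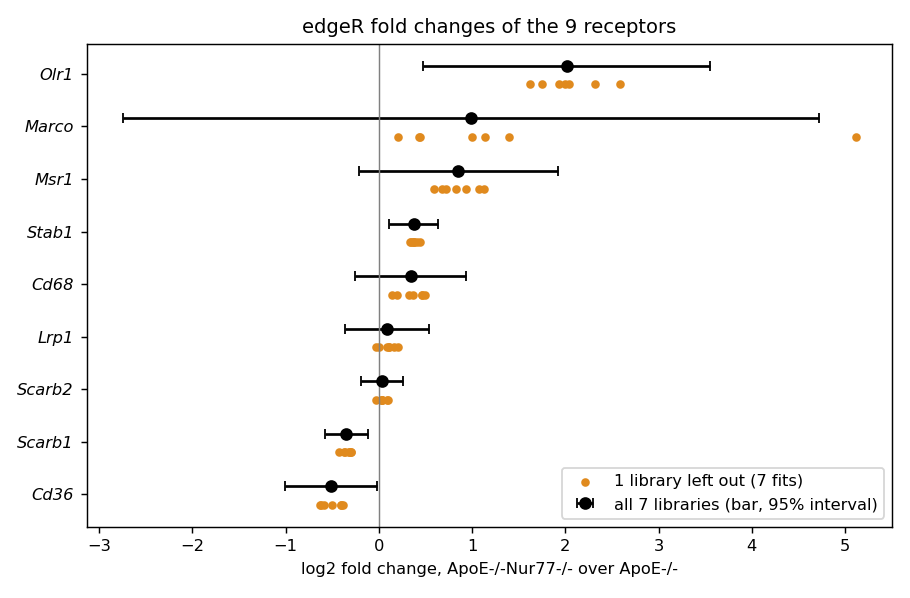
edgeR log2 fold changes of the libraries labelled ApoE-/-Nur77-/- over those labelled ApoE-/-, with unadjusted 95% intervals (black) and the values with each library left out in turn (orange). The values for Olr1 stay between 1.62 and 2.59 and those for Cd36 and Scarb1 stay below 0, while Marco reaches 5.11.

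DKO 4 was the lowest of the 4 libraries labelled DKO for 7 of the 9 members, and DKO 2 was the lowest for the other 2, Scarb1 and Scarb2. DKO 4 also had the lowest macrophage level of that group (7.03 mean log2 CPM over 15 genes) and the highest smooth muscle level of all 7 libraries (10.65 over 8 genes). DKO 1, which had the most Olr1, Msr1 and Lrp1, had the lowest smooth muscle level (8.88). The part of this mixture of tissues in the member values was not tested.

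Each member was also set against the macrophage genes of its own library. The macrophage level was the mean log2 CPM of 15 genes, none of them a member, and differed by 0.37 between groups (exact two-sided permutation p = 0.286). Olr1 stood at -3.22, -3.21, -4.01 and -4.91 relative to this log2 level in DKO 1 to DKO 4 and -5.28, -4.82 and -6.28 in ApoE 1 to ApoE 3, a difference of 1.63 (exact two-sided permutation p = 0.114, with 0.0571 the smallest p that the 35 ways to assign the libraries allow, so none of these 9 comparisons could reach 0.05). Only DKO 4 and ApoE 2 crossed. The difference was -0.055 for Cd68 and -0.0034 for Stab1 (exact permutation p = 0.743 and 1.00), and 0.32 for Msr1, where DKO 4 (-2.33) was below and DKO 1 (-0.88), DKO 2 (-1.34) and DKO 3 (-1.29) were above all 3 libraries labelled ApoE-/- (-1.85 to -1.69). In an edgeR fit over all genes with the macrophage level as a covariate, the log2 fold change was 1.15 for Olr1 (adjusted p = 0.533) and -0.032 for Msr1 (adjusted p = 0.983). The same edgeR fit gave 0.27 for Stab1 (SE 0.12, adjusted p = 0.534) and -0.091 for Cd68 (adjusted p = 0.872).

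Relative to macrophage genes, Cd36 and Scarb1 read lower in every library labelled DKO. The macrophage level was itself 0.37 higher on average in the libraries labelled DKO, which lowers relative values there. The share of all genes free of overlap on this scale was not computed. Cd36 stood at 0.90 to 1.17 in the libraries labelled DKO and 1.36 to 2.49 in those labelled ApoE-/-, and Scarb1 at -1.26 to -0.63 in the libraries labelled DKO and -0.51 to 0.14 in those labelled ApoE-/- (differences -0.90 and -0.72, exact permutation p = 0.0571 for both). Both receptors are also made by adipocytes, and all 12 white adipocyte genes had negative log2 fold changes (median -0.97, 0 called by edgeR). Their level was 7.30 to 7.85 mean log2 CPM in the libraries labelled DKO and 8.20 to 8.76 in those labelled ApoE-/-. Set against that level, Cd36 was at 1.32, 0.93, 1.32 and 0.29 in DKO 1 to DKO 4 and at 0.41, 0.55 and 0.50 in ApoE 1 to ApoE 3, a difference of 0.48 with overlap. Scarb1 differed by 0.66 in the same direction, at -1.46 to -0.88 in the libraries labelled DKO and -1.98 to -1.33 in those labelled ApoE-/-. The adipocyte level did not overlap between groups, so it and the labelled genotype cannot be told apart here.

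**Figure D4:**
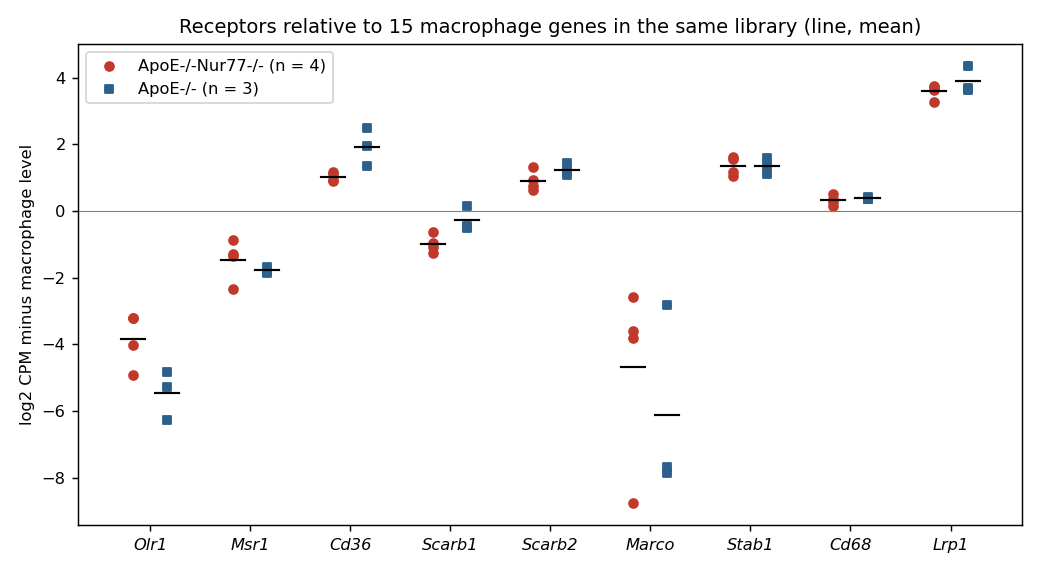
log2 CPM of each member minus the mean log2 CPM of 15 macrophage genes in the same library, for the 4 libraries labelled ApoE-/-Nur77-/- (red circles, left) and the 3 labelled ApoE-/- (blue squares, right); lines are means. The means of Cd68 are 0.055 apart, those of Olr1 are 1.63 apart, and Cd36 and Scarb1 do not overlap. The share of all genes free of overlap on this scale was not computed.

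By the median of values per transcript length, the receptors of the Ang II-exposed aorta spanned from Olr1 to Cd68. Median FPKM over the 7 libraries was 107 for Cd68, 105 for Cd36 and 91.2 for Lrp1, and these 3 overlapped, making up 65.9% to 73.7% of the members' summed FPKM. Their order differed between the groups: Cd68 was first and Cd36 below Lrp1 in all 4 libraries labelled DKO, while Cd36 was above Lrp1 in all 3 labelled ApoE-/- and first in ApoE 1 and ApoE 3. That difference in order was not tested, and the share of all gene pairs whose order parts the groups was not computed. Scarb2 followed at 62.1, below Lrp1 in all 7 libraries though with overlapping ranges, then Stab1 at 33.5 and Scarb1 at 19.7, each below the one before it without overlap. Msr1 was at 5.82, Marco at 3.18 and Olr1 at 1.49. Msr1 and Marco overlapped, as did Marco and Olr1, and Marco was above Olr1 in 2 of the 7 libraries. The FPKM of Olr1 was 5.55, 4.34, 3.39 and 0.967 in DKO 1 to DKO 4 and 0.762, 1.49 and 0.264 in ApoE 1 to ApoE 3. It was thus the scarcest member by median, at 0.0658% to 1.04% of the members' sum.

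**Figure D5:**
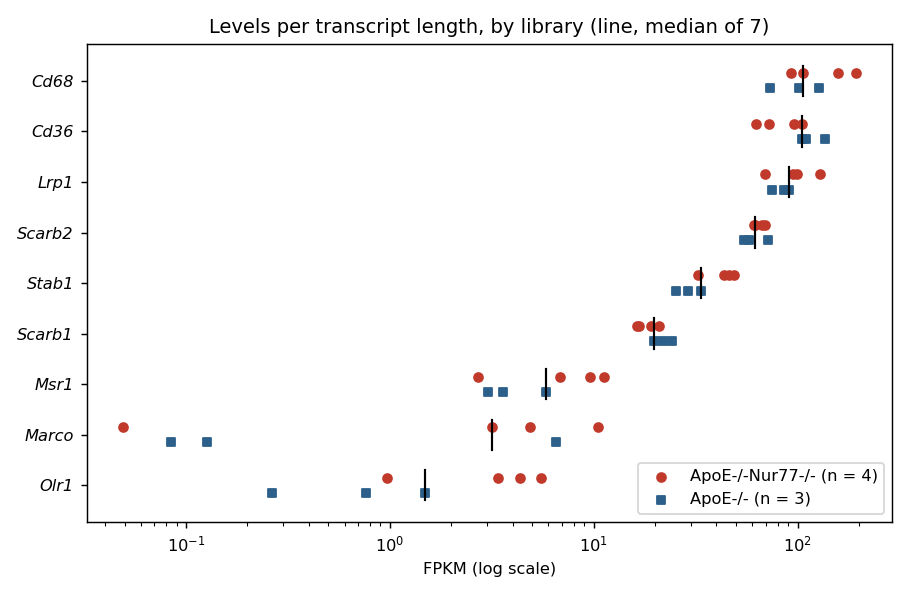
FPKM of each member on a log scale in the 4 libraries labelled ApoE-/-Nur77-/- (red circles, upper) and the 3 labelled ApoE-/- (blue squares, lower), ordered by the median of all 7 (line). Cd68, Cd36 and Lrp1 have medians of 91.2 to 107 and overlap, and Marco spreads most.

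The other genes of lipoprotein uptake and lipid handling were not called by edgeR either, in any list. Of 12 other scavenger receptor genes, 7 were positive and 5 negative (median log2 fold change 0.11). Scara5, a ferritin receptor gene of fibroblasts, was the one with the smallest p, at 102, 73.1, 102 and 128 CPM in DKO 1 to DKO 4 and at 184, 218 and 194 CPM in ApoE 1 to ApoE 3 (log2 fold change -0.97, SE 0.18, edgeR adjusted p = 0.120). Of 16 genes of the LDL receptor family and its regulators, 13 were tested, 8 positive and 5 negative (median 0.11), and Lrp8, the apolipoprotein E receptor 2 gene, was at 14.8 to 18.0 CPM in the libraries labelled DKO and 9.11 to 13.5 CPM in those labelled ApoE-/- (log2 fold change 0.57, SE 0.16, edgeR adjusted p = 0.158). All 13 signalling partners of CD36 and LOX-1, such as Toll-like receptors, Src kinases and NADPH oxidase subunits, were positive (median 0.39), in the range of the macrophage genes (15 of 15 positive, median 0.41), and each of the 13 overlapped between groups. Tlr4 had the smallest p among them (log2 fold change 0.39, SE 0.18, edgeR adjusted p = 0.290).

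Of 18 genes of macrophage lipid handling, 7 were positive and 11 negative (median -0.046). Fabp4, a fatty acid-binding protein gene of adipocytes and macrophages, was the one with the smallest p, at 1343 to 2095 CPM in the libraries labelled DKO and 2811 to 4790 CPM in those labelled ApoE-/- (log2 fold change -1.21, SE 0.23, edgeR adjusted p = 0.124). By median, the foamy macrophage genes stood at 0.28 (7 of 9 positive), the resident macrophage genes at -0.25 (1 of 8 positive) and the monocyte genes at 0.41 (6 of 7 positive), with 0 called by edgeR. For the other cells the tissue could hold, the median log2 fold change was 1.25 for neutrophil, 0.57 for lymphatic endothelial, 0.67 for platelet and red cell, 0.24 for fibroblast, -0.16 for endothelial, -0.27 for smooth muscle and -1.45 for brown adipocyte genes. The neutrophil level was 3.73, 1.99, 0.70 and 0.058 mean log2 CPM in DKO 1 to DKO 4. In ApoE 1 to ApoE 3 it was 0.52, 1.95 and -0.38, so the groups overlapped. Platelet and red cell levels also overlapped, at 2.22 to 4.16 in the libraries labelled DKO and 2.05 to 3.61 in those labelled ApoE-/-. The genes with the smallest p in these lists, none called by edgeR (adjusted p of 0.110 to 0.631), had positive log2 fold changes for C1qa of macrophages (0.46), Mmp12 of foamy macrophages (0.91), Fn1 of the monocyte list (0.44), Ngp of neutrophils (3.20), Ccl21a of lymphatic endothelium (0.82) and Alas2 of red cells (1.31). They had negative ones for Cd163 of resident macrophages (-1.48), Eng of endothelium (-0.26), Des of smooth muscle (-0.44), Pi16 of fibroblasts (-1.45), Acsl1 and Ppargc1a of white and brown adipocytes (-0.95 and -1.45), Mc2r of adrenal cortex (-0.79) and Tnnt2 of cardiac muscle (-3.46). Ngp was at 18.7 CPM in DKO 1, but at 2.06, 0.178 and 0.102 CPM in DKO 2 to DKO 4. In ApoE 1 to ApoE 3 Ngp was at 0.198, 1.47 and 0 CPM. Pi16 ran against most of its list, in which 5 of 8 fibroblast genes were positive and 3 negative. The median was -0.61 for the 2 tested adrenal cortex genes and -4.69 for 6 atrial and cardiac muscle genes. The cardiac level was -0.12 to 2.05 mean log2 CPM in the libraries labelled DKO and 0.93, 5.58 and 7.41 in ApoE 1 to ApoE 3. Without ApoE 2 and ApoE 3 the log2 fold change was 2.06 for Olr1, 0.90 for Msr1, 5.03 for Marco, -0.53 for Cd36, -0.18 for Scarb1, 0.041 for Scarb2, 0.36 for Stab1, 0.31 for Cd68 and 0.29 for Lrp1, a fit in which ApoE 1 stands alone and is assumed to vary like the others.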

How the data were processed

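Aortic RNA was sequenced from TruSeq Stranded mRNA libraries, per the labels' protocols. The submitters' processing notes name Trimmomatic, HISAT2, HTSeq, Cufflinks, DESeq and GRCm38.p6, without versions or roles, and strand use in counting is not given in the sources used here. The deposited tables hold raw counts per gene and FPKM values scaled by the authors for length and depth. Symbols turned into dates (27) were restored by gene identifier. Counts passed edgeR's filterByExpr (minimum count 10), were TMM-normalised and tested by edgeR's quasi-likelihood test, libraries labelled DKO over libraries labelled ApoE-/-, with Benjamini-Hochberg adjustment over 14609 genes. Each SE was obtained by dividing the size of the log2 fold change by the root of its F statistic. List levels are mean log2 CPM (prior count 2). A count of 0 allows up to 0.133 to 0.164 CPM, covering counting error only. Named genes were the members, Nr4a1, Apoe, the Olr1 neighbours, the 3 nearest profiles of a member, and of each list the member with the smallest p where none was called. The profiles nearest to Scarb2 are not reported here. Star was singled out after its values were seen. The members and lists were chosen with earlier results of these data known. Same-numbered libraries correlated at -0.39, 0.70 and 0.0036 in their deviations, which does not settle whether the numbers pair them. The lowest chi-square per gene between 2 libraries was 35.4, so no library repeated another. The fit was also run on simulated data, and the outcome is not reported here. DESeq2 1.42.0, limma 3.58.1 and edgeR 4.0.16 ran in R 4.3.3. Alternatives were RLE size factors, DESeq2, limma voom, other filters, a replicate block, left-out libraries, limma on log2 FPKM and 2 covariates. Leaving out ApoE 2 and ApoE 3 together and the levels relative to adipocytes were chosen after seeing the data.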

Additional observations from a re-analysis of the deposited data

How the results depend on the processing

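Over 19 alternatives, 152 of 171 member fold changes kept their direction and their side of the threshold. Genes called were 461 higher and 681 lower with DESeq2 and 902 higher and 1467 lower with voom, against 0 and 4 with edgeR. They were 1 higher with limma on FPKM above a mean of 1 (either pseudocount), and 0 lower with unfiltered FPKM, the replicate block, either covariate or without ApoE 2 and ApoE 3. Each library left out gave 0 to 4 higher and 0 to 2 lower. DESeq2 and voom each called 2 members higher, Olr1 (log2 fold change 2.05 and 2.13) and Stab1 (0.40 and 0.40). Over all genes DESeq2 called 3.35% of those given an adjusted p higher, and voom 6.17%. DESeq2 gave no adjusted p for 868 genes. With replicates 1 to 3 and the replicate block 0 members were called (Olr1 2.51, adjusted p = 0.110), and 1 of 3 numbers had libraries that correlated best. With the macrophage covariate the sign turned for Msr1 (-0.032), Cd68 (-0.091), Lrp1 (-0.070), Scarb2 (-0.047) and Marco (-1.10). With the white adipocyte covariate it turned for Nr4a1 (1.00), Olr1 (-1.36), Msr1 (-1.20), Marco (-8.95), Stab1 (-0.082), Cd68 (-0.55), Lrp1 (-0.29) and Scarb2 (-0.13), with adjusted p of 0.615 to 0.919. That level does not overlap between groups, so these values rest on an extrapolation. Each library left out gave -0.025 to 0.10 for Scarb2 and -0.025 to 0.20 for Lrp1 (-0.0025 without ApoE 1), and, relative to macrophages, -0.12 to 0.11 for Stab1 and -0.12 to 0.0045 for Cd68. Marco had 4 to 10 counts in 3 libraries, so its ratios there rest on few reads.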
